A study of Mus musculus with 6 samples.

Results

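The 6 genes described here encode transcription factors that carry the circadian clock's timing to other genes: the proline and acidic amino acid-rich (PAR) bZIP activators Dbp, Tef and Hlf, the bZIP repressor Nfil3, and the bHLH repressors Bhlhe40 and Bhlhe41. They were taken by symbol from the gene count table of the series, which holds 22272 distinct symbols, and all 6 were found. RNA was sequenced from C2C12 cells, proliferating mouse myoblasts that can fuse into muscle fibres. The control group, labelled as wild type, was made of 3 libraries from cells with green fluorescent protein (GFP). The other group was made of 3 libraries from cells overexpressing ChREBP-beta, a short and highly active form of ChREBP, the carbohydrate response element binding protein. This factor answers to glucose and is encoded by Mlxipl. Both groups were undifferentiated cells at day 0. The labels give neither the way the 2 proteins were introduced nor whether replicates were separate cultures, so the p-values rest on a spread that may be technical.

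In the clock, the proteins Clock and Bmal1 bind E-boxes (CACGTG) and switch on their own inhibitors, the Per and Cry genes, as well as Dbp and Tef. Dbp, Tef and Hlf then activate genes that carry a D-box, and Nfil3 occupies the same D-boxes and represses them. Bhlhe40 and Bhlhe41, also known as Dec1 and Dec2, bind E-boxes and repress there, against Clock and Bmal1. ChREBP itself binds pairs of E-box-like sites, and Bhlhe40 is known as one of its targets. In myoblasts, Bhlhe41 is also known to hold back the myogenic factor Myod1.

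The kinship of these factors can be read in their coding sequences. Shown are the 60 bases of Tef with the highest summed identity to Dbp, Hlf and Nfil3, and the best match in each. They were found without gaps in each gene's longest coding sequence (GENCODE M21, GRCm38). They set the activators beside the repressor that shares their sites. Capitals mark the 28 bases identical in all 4 genes, and each stretch lies in 1 exon.
Tef, chr15:81823492-81823551, plus strand: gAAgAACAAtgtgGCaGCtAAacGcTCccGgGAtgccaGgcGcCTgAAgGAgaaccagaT
Dbp, chr7:45709691-45709750, plus strand: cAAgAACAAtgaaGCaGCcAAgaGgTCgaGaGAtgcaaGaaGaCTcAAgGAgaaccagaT
Hlf, chr11:90340889-90340948, minus strand: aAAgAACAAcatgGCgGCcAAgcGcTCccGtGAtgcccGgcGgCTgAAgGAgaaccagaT
Nfil3, chr13:52968565-52968624, minus strand: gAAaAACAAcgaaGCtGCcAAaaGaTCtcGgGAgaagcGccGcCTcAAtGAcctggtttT
Over these bases Hlf shared 51 with Tef, Dbp 45 and Nfil3 35. In the same way, the most alike stretch of Bhlhe40 and Bhlhe41 had 51 of 60 bases in common, shown in capitals.
Bhlhe40, chr6:108661541-108661600, plus strand: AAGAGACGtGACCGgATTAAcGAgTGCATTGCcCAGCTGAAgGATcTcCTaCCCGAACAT
Bhlhe41, chr6:145864588-145864647, minus strand: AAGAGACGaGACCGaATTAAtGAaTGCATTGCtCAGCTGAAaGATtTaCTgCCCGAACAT
The deposited values of Tef, Hlf, Nfil3, Bhlhe40 and Bhlhe41 were whole numbers in all 6 libraries. Those of Dbp were not.

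The promoter windows of the RefSeq table (GRCm38.p6; 250 bases before to 50 bases after an annotated start) covered 5 of the 6 genes, all but Bhlhe40. An E-box, searched as CACGTG, which reads the same on both strands, stood in the single window of Bhlhe41 and in both windows of Tef. It is found in 7.15% of the 32851 windows of that length in the table. Clock and Bhlhe40 read this motif, whereas the pairs of similar sites bound by ChREBP were not searched. The 30 bases around each match are shown for this reason, with the E-box in capitals and its distance counted from the start site.
Tef, outer start, 127 bases upstream, chr15:81802534-81802563, plus strand: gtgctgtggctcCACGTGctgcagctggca
Tef, inner start, 138 bases upstream, chr15:81811264-81811293, plus strand: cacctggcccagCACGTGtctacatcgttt
Bhlhe41, 153 bases upstream, chr6:145865556-145865585, minus strand: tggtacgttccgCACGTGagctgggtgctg
The windows of Dbp, Hlf and Nfil3 held no E-box. No window of the 5 genes held the D-box letters TTATGTAA or TTACGTAA on either strand, which stand in 0.938% and 0.119% of windows. These are matches of letters only, and binding was not measured.

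Deposited counts summed to between 17600238 and 19163834 per library, with both groups spread over that range. Mlxipl, the overexpressed gene, was read at 0.501 to 0.719 CPM (counts scaled to a common library size with TMM factors) in the GFP libraries and at 215 to 222 CPM in the ChREBP-beta libraries, as the labels state. The labelled cell type was checked with 9 myoblast markers, all of which were detected and all of which were called lower with ChREBP-beta. Their summed level was 603 to 648 CPM with GFP and 247 to 261 CPM with ChREBP-beta. Of 6 fibroblast markers, 4 were called higher and 2 lower, with sums of 827 to 861 and 875 to 899.7 CPM. Of 4 macrophage markers 2 could be tested, and of 4 endothelial markers 3, and none of these was called. The macrophage sums were 1.55 to 3.01 CPM. The endothelial sum was 0.733 CPM in GFP replicate 1, which also stands apart in lung reads, and 2.49 to 5.10 CPM in the other libraries. Of 6 adipocyte markers Lep was at 0, Fabp4 was called higher, and the sum reached 4.19 CPM at most. The part of these marker differences in the results below was not tested, and in bulk RNA fewer cells of a type cannot be told apart from less RNA per cell.

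With ChREBP-beta the repressors rose and the activators that could be tested fell. Both groups were sampled at day 0 only, and whether they differed in clock timing was not tested. Bhlhe40 rose 2.61-fold, while Nfil3 and Bhlhe41 rose by small steps of 1.16-fold and 1.14-fold. These small rises lay near the threshold, and under scaling by library size alone neither was called. Tef fell 1.32-fold. Dbp fell 2.69-fold on its deposited counts, which share reads with the overlapping gene Sphk2; summed with Sphk2, to which most of those reads were assigned, the log2 fold change was -0.51 against -1.43. Hlf was too rare to be tested. Of the 5 tested genes, 3 were thus called higher and 2 lower (edgeR quasi-likelihood test, Benjamini-Hochberg adjusted over 12166 genes, called at an adjusted p under 0.05). Among all genes tested, 29.5% were called higher and 29.3% lower, 58.7% together, so a call as such was common in this comparison. The 2 groups did not overlap at 4 of the 5, against 63.2% of all genes tested: ChREBP-beta was the higher group for Bhlhe40 and Nfil3 (31.3% of all genes tested) and GFP for Tef and Dbp (32% of all genes tested). A rise at least as large as that of Bhlhe40 was called for 2.94% of genes, and a fall at least as large as that of Dbp on its deposited counts for 4.69%.

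**Figure D1:**
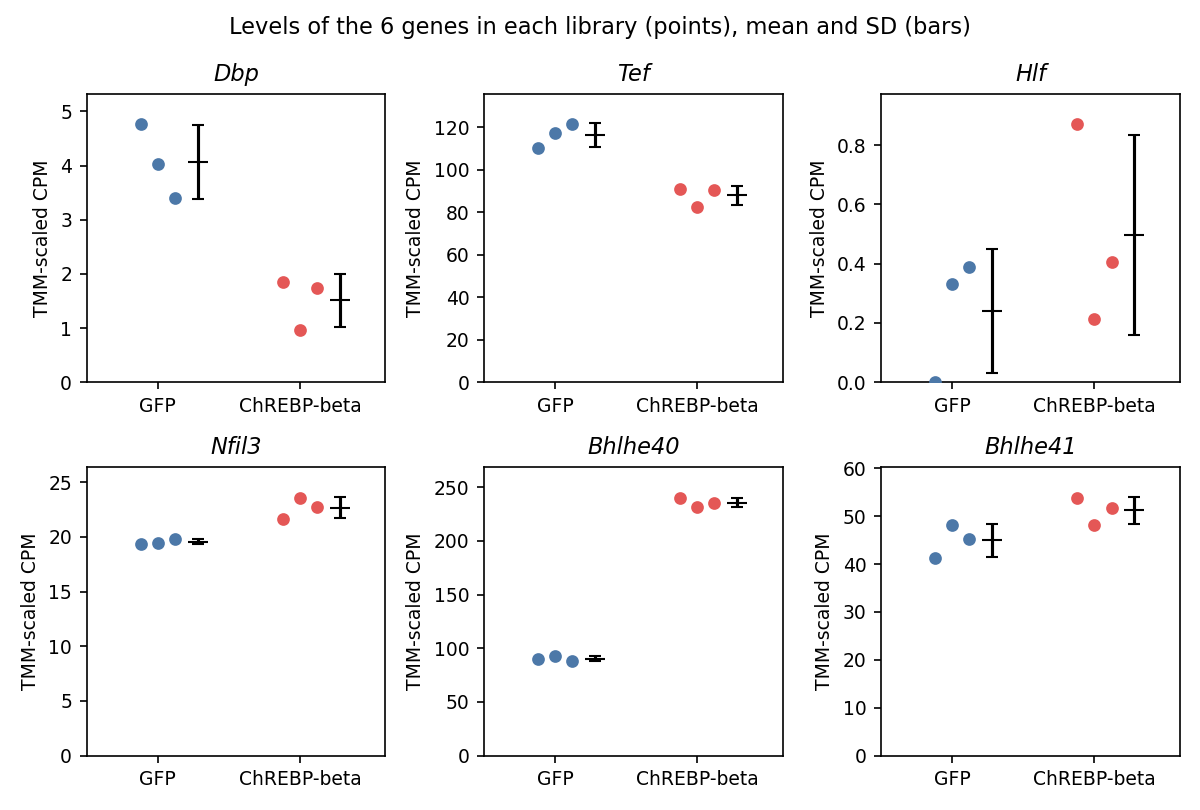
TMM-scaled CPM (vertical axis, from 0, a scale of its own for each gene) of the 6 genes in the GFP (blue) and ChREBP-beta (red) libraries; points are libraries and black bars the mean with SD of 3. The groups lie apart for Dbp, Tef, Nfil3 and Bhlhe40 and overlap for Hlf and Bhlhe41.

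Bhlhe40 (ENSMUSG00000030103.11; chr6:108660629-108666925, plus strand, GRCm38), the bHLH repressor, stood at 90.2, 92.8 and 88.1 CPM in GFP replicates 1 to 3. In ChREBP-beta replicates 1 to 3 it stood at 240.1, 231 and 236 CPM. Every ChREBP-beta library was far above every GFP library, and within a group the libraries differed by only a few percent. The means were 90.4 ± 2.38 and 236 ± 4.40 CPM (SD, n = 3), a log2 fold change of 1.38 (SE 0.034, edgeR adjusted p = 6.23e-21).

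Bhlhe41 (ENSMUSG00000030256.11; chr6:145858243-145865558, minus strand), its close paralog, did not follow by the same amount. It was read at 41.3, 48.2 and 45.3 CPM with GFP and at 53.8, 48.2 and 51.6 CPM with ChREBP-beta. The groups met at GFP replicate 2 and ChREBP-beta replicate 2. The log2 fold change was 0.19 (SE 0.061, edgeR adjusted p = 0.0102), and the call was lost without GFP replicate 1 (edgeR adjusted p = 0.0813) and without ChREBP-beta replicate 1 (edgeR adjusted p = 0.055). Scaled by library size alone it was also lost (edgeR adjusted p = 0.0515), the difference staying positive each time. Per kb of transcript, Bhlhe40 stood 3.97 ± 0.283 times as high as Bhlhe41 with GFP and 9.08 ± 0.338 times as high with ChREBP-beta (SD, n = 3). The lowest of the ChREBP-beta ratios, 8.79, was above the highest with GFP, 4.30.

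Nfil3 (ENSMUSG00000056749.7; chr13:52967209-52981073, minus strand), the bZIP repressor, was read at 19.4, 19.5 and 19.8 CPM with GFP. With ChREBP-beta it was read at 21.7, 23.6 and 22.7 CPM. The GFP values were nearly equal and all 3 ChREBP-beta values were above them. The log2 fold change was 0.21 (SE 0.076, edgeR adjusted p = 0.0193). This call too was near the threshold: it was lost without ChREBP-beta replicate 2 (edgeR adjusted p = 0.0707), under scaling by library size alone (edgeR adjusted p = 0.0622) and with DESeq2 (adjusted p = 0.0502).

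Tef (ENSMUSG00000022389.15; chr15:81802421-81826863, plus strand), whose name comes from thyrotroph embryonic factor, was the main PAR bZIP transcript in these cells. It stood at 110.3, 117 and 121 CPM with GFP and at 90.9, 82.6 and 90.4 CPM with ChREBP-beta. All GFP libraries were above all ChREBP-beta libraries. The log2 fold change was -0.40 (SE 0.044, edgeR adjusted p = 2.33e-08).

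Dbp (ENSMUSG00000059824.12; chr7:45705088-45710203, plus strand), the D-box binding protein gene and a classic output gene of the clock, was much rarer. It was read at 4.76, 4.04 and 3.40 CPM with GFP and at 1.85, 0.957 and 1.73 CPM with ChREBP-beta. The groups did not overlap, but the libraries of a group differed more than for Tef, on sums of 224.93 counts with GFP and 82.1 with ChREBP-beta. This gave a log2 fold change of -1.43 (SE 0.267, edgeR adjusted p = 6.47e-05).

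The counts of Dbp were tied to those of Sphk2, the sphingosine kinase gene on the opposite strand, whose end overlaps Dbp at chr7:45709467-45710203 (737 bases, of which 539 are exonic in both). The 60-base Dbp stretch shown above lies inside this overlap. Dbp was assigned 91.01, 72.6 and 61.32 counts with GFP and 34.13, 17.83 and 30.14 with ChREBP-beta, and Sphk2 184.99, 203.4 and 171.68 and then 129.87, 175.17 and 157.77. Neither gene had whole counts, yet their sum was whole to within 0.005 in 5 of 6 libraries, at 276, 276 and 233 with GFP and 164 and 193 in ChREBP-beta replicates 1 and 2. Dbp took 33.0%, 26.3% and 26.3% of that sum with GFP and 20.8%, 9.24% and 16.0% with ChREBP-beta. Summed as 1 gene, the pair was lower with ChREBP-beta by a log2 fold change of -0.51 (SE 0.108, edgeR adjusted p = 0.00027), against -1.43 for Dbp as deposited. Sphk2 alone had a log2 fold change of -0.26 (edgeR adjusted p = 0.0852). Most of the summed reads were assigned to Sphk2, so the summed value is no second measure of Dbp, and the fold change of Dbp applies to its reads as the authors' counting divided them.

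**Figure D2:**
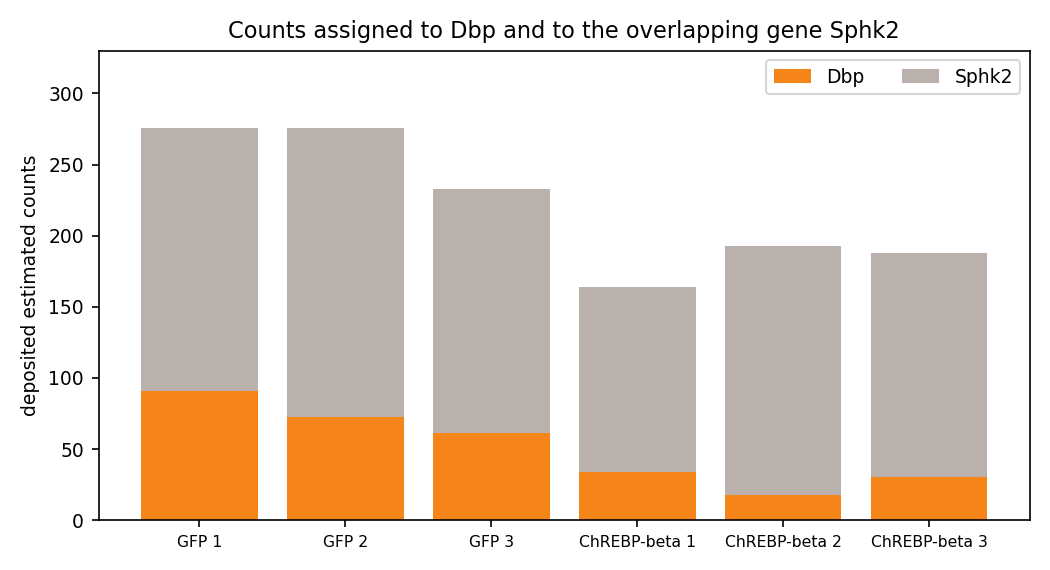
Deposited estimated counts (vertical axis) assigned to Dbp (orange) and to Sphk2 (grey, stacked on top) in each of the 6 libraries. The sums are 233 to 276 with GFP and 164 to 193 with ChREBP-beta, and the Dbp part is smaller in every ChREBP-beta library than in any GFP library.

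Hlf (ENSMUSG00000003949.16; chr11:90336536-90390895, minus strand), the hepatic leukemia factor gene, was at the edge of detection. It had 0, 6 and 7 counts with GFP and 16, 4 and 7 with ChREBP-beta, and did not pass the filter on low counts. The count of 0 in GFP replicate 1 allows a level of up to 0.157 CPM (3 counts, counting error only). The groups overlapped, and with no filter the log2 fold change was 1.04 (SE 0.745, edgeR adjusted p = 0.272).

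The library without an Hlf read was also the one with the fewest reads of lung genes, and it held hardly any of liver genes. The 5 lung markers summed to 0.523 CPM in GFP replicate 1, against 134.7 and 94.1 CPM in GFP replicates 2 and 3 and 70.2 to 90.95 CPM with ChREBP-beta. Sftpc, the surfactant gene of lung epithelium, had 5 counts there and 349 to 489 in the other libraries. The 8 hepatocyte markers summed to 0.209, 0.0553 and 30.5 CPM with GFP and 18.5 to 23.9 CPM with ChREBP-beta. GFP replicate 2 thus had 6 Hlf reads with lung but hardly any liver marker reads. The 5 blood markers summed to 3.35 to 11.03 CPM with GFP and 5.49 to 9.79 CPM with ChREBP-beta. None of the tested markers, 5 of lung, 7 of hepatocytes and 3 of blood, was called between the groups. The GFP libraries differed widely, with Sftpc at 17.8 ± 15.2 CPM and Alb at 5.46 ± 9.36 CPM (SD, n = 3). The lack of calls therefore does not show that such reads were equal in the 2 groups. The part of such reads in the Hlf counts was not tested. Dbp was highest in the library with the fewest lung reads. Without that library the log2 fold change of Dbp was -1.30 (edgeR adjusted p = 0.000788), that of Tef -0.44 and that of Bhlhe40 1.38. Without the same library Bhlhe41 was no longer called, at 0.13 (edgeR adjusted p = 0.0813), and Nfil3 stood at 0.21 (edgeR adjusted p = 0.047).

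**Figure D3:**
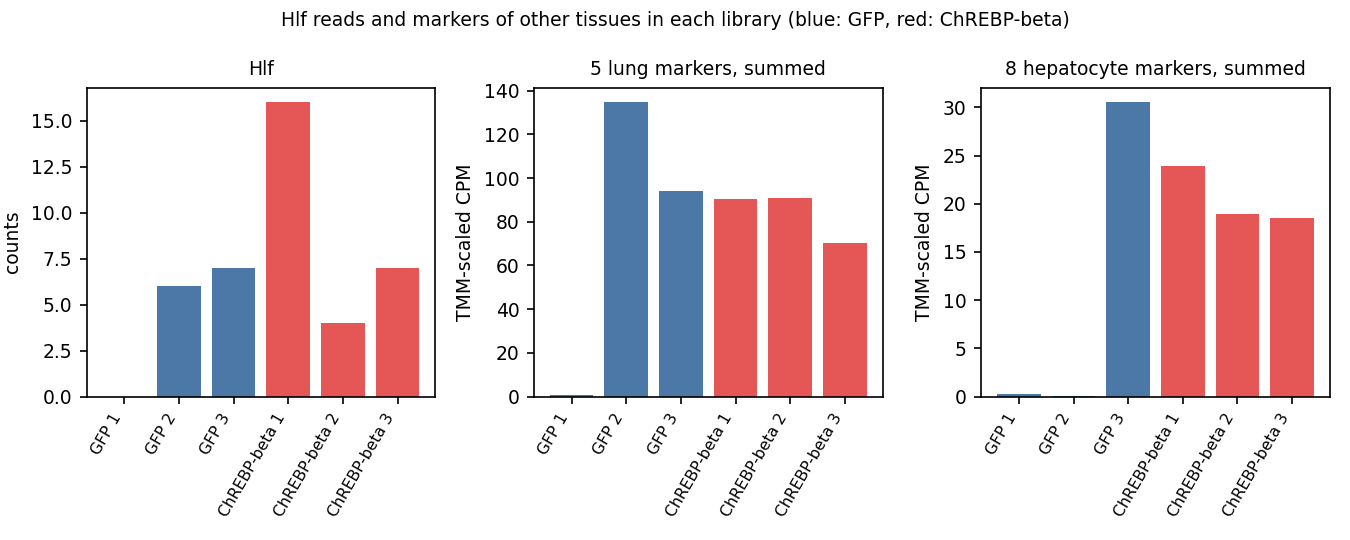
Hlf counts (left), the summed CPM of 5 lung markers (middle) and of 8 hepatocyte markers (right) in the 6 libraries, GFP in blue and ChREBP-beta in red. GFP replicate 1 has no Hlf count and a lung sum of 0.523 CPM, while GFP replicate 2 has 6 Hlf counts, the highest lung sum and a hepatocyte sum near 0.

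Divided by the length of the longest coding transcript, levels can be set beside each other. With GFP the order was Bhlhe40 (29.0 ± 0.764 CPM per kb), Tef (26.4 ± 1.28), Nfil3 (9.64 ± 0.107), Bhlhe41 (7.33 ± 0.565), Dbp (2.21 ± 0.371) and Hlf (0.0427 ± 0.0373; SD, n = 3). The libraries of Bhlhe40 and Tef, the first and second in this order, did not overlap, at 28.3 to 29.8 and 25.1 to 27.6 CPM per kb. With ChREBP-beta the order was unchanged, but Bhlhe40 at 75.7 ± 1.41 CPM per kb stood well away from Tef at 19.98 ± 1.06 (SD, n = 3). Nfil3 was at 11.2, Bhlhe41 at 8.35, Dbp at 0.824 and Hlf at 0.0879 CPM per kb.

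Since the PAR activators and Nfil3 meet at the same D-boxes, their transcript levels were also set against each other. Per kb, Dbp, Tef and Hlf together stood at 2.89, 3.01 and 3.02 times the level of Nfil3 with GFP. With ChREBP-beta they stood at 2.04, 1.66 and 1.92 times that level. The ratio was lower in each ChREBP-beta library than in any GFP library, at 2.97 ± 0.070 and 1.88 ± 0.194 (SD, n = 3). Tef made up 92.1% ± 1.44 of the activators' summed level with GFP and 95.7% ± 1.27 with ChREBP-beta (SD, n = 3). Dbp gave 7.75% and 3.90% of it, so the summed level followed Tef. The size of the ratio to Nfil3 depends on the lengths used. Without division by length its means were 6.17 with GFP and 3.985 with ChREBP-beta. These ratios are descriptions of transcripts, with no test.

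**Figure D4:**
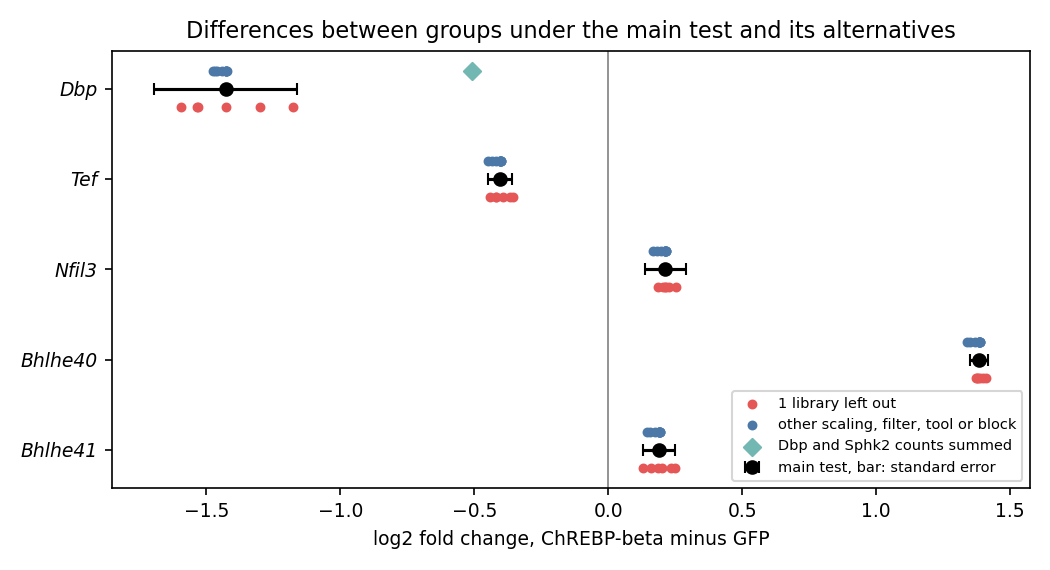
Log2 fold change of the 5 tested genes (horizontal axis, ChREBP-beta minus GFP): black points are the main test with its standard error, red points have 1 library left out, blue points use another scaling, filter, tool or block, and the diamond is Dbp summed with Sphk2. Bhlhe40 keeps to a narrow range at 1.34 to 1.41, Nfil3 and Bhlhe41 stay close to 0 on the positive side, and the summed Dbp and Sphk2 value is far smaller in size than that of Dbp.

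Core clock genes moved in both directions. Of 20 tested, 8 were called higher, 8 lower and 4 not, with a median log2 fold change of -0.02, beside a median of 0.00 over all genes tested. These counts, and those of the lists below, stand beside 29.5% called higher and 29.3% lower among all genes tested. Clock, the E-box activator, rose from 245 ± 3.32 to 321 ± 7.19 CPM (edgeR adjusted p = 2.98e-11; SD, n = 3). Its partner Arntl, which encodes Bmal1, fell from 26.4 ± 0.749 to 15.3 ± 0.330 CPM (edgeR adjusted p = 3.68e-09; SD, n = 3). The inhibitor gene Per3 fell from 29.6 to 15.03 CPM and the inhibitor gene Cry1 rose from 18.2 to 32.0 CPM (edgeR adjusted p = 4.34e-11 and 1.32e-09).

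**Figure D5:**
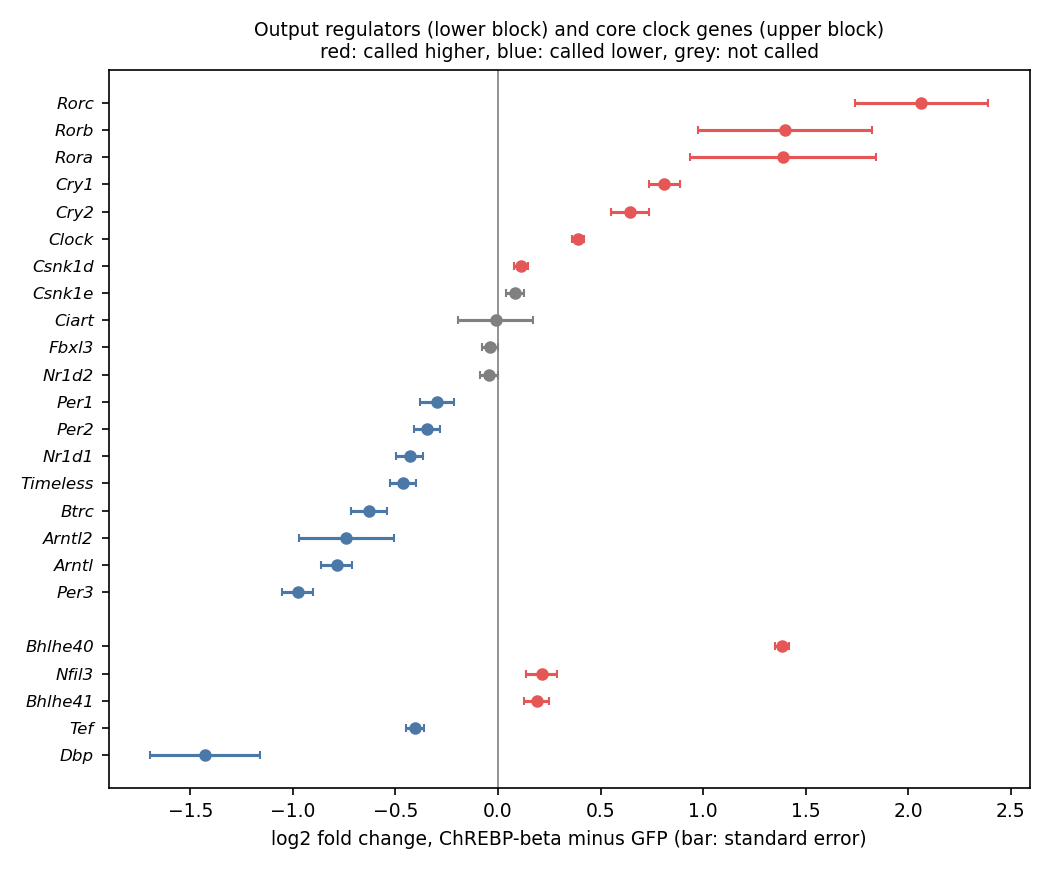
Log2 fold change with standard error (horizontal axis, ChREBP-beta minus GFP) of the 5 tested output regulators (lower block) and of tested core clock genes (upper block; Npas2, with no GFP count, is left out); red is called higher, blue called lower and grey not called. The Per genes, Arntl and Nr1d1 lie on the lower side with Dbp and Tef, and Clock, the Cry genes and the low Ror genes on the higher side with Bhlhe40.

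Genes downstream of these factors were taken from lists of known targets. Of 10 clock genes with a known D-box, Tef among them, 3 were called higher, 5 lower and 2 not (median log2 fold change -0.17). Nr1d1, which encodes the repressor Rev-erb alpha and whose counts include divided reads, fell from 33.3 to 24.7 CPM (edgeR adjusted p = 5.08e-06). Of 8 metabolic targets of the PAR factors, known from liver and brain, 4 could be tested and 1 was called: Pdxk, the pyridoxal kinase gene, stood at 24.9 ± 0.791 CPM with GFP and rose to 38.3 ± 1.10 CPM (edgeR adjusted p = 6.85e-09; SD, n = 3). Por, the cytochrome P450 reductase gene, stood at 98.8 and 96.0 CPM (edgeR adjusted p = 0.423), Alas1, of heme synthesis, at 26.4 and 25.9 CPM (edgeR adjusted p = 0.757) and Cyp2b10 at 0.407 and 0.638 CPM (edgeR adjusted p = 0.363). Cyp2b10 had 0, 9 and 13 counts with GFP, the 0 in the library with the fewest lung reads, and 13, 14 and 8 with ChREBP-beta. Its log2 fold change of 0.67 was 0.07 without GFP replicate 1 and 1.38 without GFP replicate 3, so single libraries set its size.

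Of 9 genes known as targets or antagonized factors of Bhlhe40 or Bhlhe41, a list that holds Dbp and Bhlhe41 themselves, 6 were called lower, 2 higher and 1 not (median log2 fold change -0.35). Those lower were the myogenic factors Myod1 and Myog, Dbp, Nr1d1, Per1 and Per2. Of all genes tested, 29.3% were called lower and 29.5% higher. Myod1 is also 1 of the 9 myoblast markers, which were all called lower. The part of Bhlhe40 and Bhlhe41 in these falls was not tested. Myod1 had the largest difference with counts in both groups, 30.8 ± 1.21 CPM with GFP against 1.23 ± 0.340 CPM (edgeR adjusted p = 1.93e-19; SD, n = 3). Myog had no count in the ChREBP-beta libraries. In a list of 10 clock-controlled genes of muscle, 8 were tested, of which 2 were called higher and 6 lower (median -0.76). Hk2, the muscle hexokinase, rose from 42.7 to 267 CPM, while Pdk4, a brake on pyruvate oxidation, fell from 50.7 to 5.26 CPM and Pdp1, the pyruvate dehydrogenase phosphatase, from 38.0 to 17.4 CPM (edgeR adjusted p = 1.05e-24, 9.27e-21 and 1.00e-12).

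The relatives of the 6 genes did not move as one. Among 5 tested C/EBP genes, bZIP factors close to the PAR family, 2 were called higher and 3 lower (median log2 fold change -0.35). Cebpb rose from 34.95 to 66.2 CPM and Cebpg from 53.9 to 60.7 CPM, while Cebpd, with divided reads, fell from 27.8 to 19.5 CPM and Ddit3 from 11.7 to 7.31 CPM (edgeR adjusted p = 9.70e-14, 0.00379, 3.04e-06 and 3.05e-05). Only 3 of 10 Hes, Hey and Helt genes, relatives of Bhlhe40 in the bHLH-Orange family, had enough counts. Hes6 fell from 6.73 to 2.95 CPM and Hey1 from 1.97 to 0.306 CPM (edgeR adjusted p = 3.37e-06 and 2.33e-05), and Hes1 stood at 15.8 and 13.9 CPM (edgeR adjusted p = 0.155).

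Bhlhe40 is also known to be induced by low oxygen, and Nfil3 and Per1 answer to hormones such as glucocorticoids, so both responses were listed. Their part in the differences was not tested. Of 13 hypoxia genes, 9 were called higher, 3 lower and 1 not (median log2 fold change 0.30). Some of the rises were small, as for Pgk1 (log2 fold change 0.08, edgeR adjusted p = 0.0137). Epas1, also called higher, was at 0.628, 4.59 and 4.96 CPM with GFP. Its lowest value was in GFP replicate 1, the library with the fewest lung reads. With ChREBP-beta it was at 7.02, 6.91 and 5.49 CPM. Among all genes tested, 29.5% were called higher and 29.3% lower. Those lower in the hypoxia list were Ndrg1, Car9 and Egln3. Car9 fell from 70.5 to 53.2 CPM and Egln3 from 79.6 to 63.7 CPM (edgeR adjusted p = 9.46e-07 and 2.87e-05). Hif1a, the oxygen-sensitive factor, rose from 369 to 509 CPM, the mitophagy gene Bnip3 from 87.9 to 123.5 CPM and P4ha1, a collagen prolyl hydroxylase, from 283.5 to 348 CPM, whereas Ndrg1 fell from 262 to 154 CPM (edgeR adjusted p = 2.78e-13, 6.34e-10, 3.18e-09 and 9.77e-14). Of 7 tested glucocorticoid-responsive genes, 2 were called higher, 2 lower and 3 not (median -0.11). Klf9 rose from 11.2 to 20.1 CPM and Fkbp5 from 48.5 to 66.4 CPM, while the receptor gene Nr3c1 fell from 217 to 194.7 CPM and Per1 from 21.8 to 17.7 CPM (edgeR adjusted p = 1.35e-07, 3.60e-08, 1.26e-04 and 0.00336).

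The genes with the most similar pattern over the 6 libraries were found by the distance between log2 CPM profiles, each centred on its own mean. With 2 groups such likeness rests mainly on the size of the group difference. Nearest to Bhlhe40 were Tkt, the transketolase gene (distance 0.063), and Snai1, a transcriptional repressor of epithelial genes (0.066), which rose 2.65-fold and 2.60-fold. Nearest to Tef were Eif2ak2 (0.050) and Tep1 (0.082), and nearest to Dbp Slc16a13 (0.415) and Kazald1 (0.515). Nfil3 had Sypl (0.029) and Baz1b (0.036) beside it, and Bhlhe41 had Rhoj (0.052) and Nmnat2 (0.070). The distances of Dbp, the rarest of the 5, were thus the widest.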

How the data were processed

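RNA was sequenced from 3 GFP and 3 ChREBP-beta samples, grouped by their titles. The authors deposited 1 table of estimated counts per gene symbol, not normalized, in which 7.74% of values are not whole. The submitters' processing notes list fastp, Bowtie2 2.0.0.5, TopHat2 2.0.0 and the chicken assembly GRCg6a, although the symbols are those of mouse genes. Counting tool, annotation and strand use are not stated there or in the labels, so a gene cannot be told from an overlapping one on the other strand. Besides Sphk2 at Dbp, non-coding genes overlap exons of Bhlhe40 (118 bases), Tef (193) and Bhlhe41 (1280), and are not used here.

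Rows of the 24 repeated symbols were summed and sums rounded. The test was edgeR 4.0.16 in R 4.3.3: filterByExpr (minimum count 10, minimum total 15), TMM scaling, glmQLFit and glmQLFTest on the group alone, two-sided. Each SE was obtained as log2 fold change over the root of the F statistic. Locations and transcript lengths come from GENCODE M21 (GRCm38) by symbol, and promoters from RefSeq, and that build may differ from the authors'. At 1 CPM a library holds about 18.2 counts. Within groups, chi-square per degree of freedom of counts lay between 2.17 and 3.98, above sampling noise. This does not test whether a library stands apart, and all 6 libraries were kept. Counts were also simulated with the library sizes of this comparison (12145 genes), with 50 genes changed at each size and the same spread for every gene. On these the test recovered 82% of 1.25-fold changes, 86% of 1.5-fold, 98% of 2-fold and 100% of 4-fold changes. In the real data far more genes were called and spread differed between genes, so these rates do not carry over to the 6 genes. Changes smaller than 1.25-fold were not simulated.

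Named are the 6 genes, Mlxipl, in each list up to 4 genes of smallest adjusted p, and the 2 nearest genes of each tested member (mean CPM of at least 5, log2 CPM with a prior count of 2). Sphk2, Sftpc and other genes were named after their values were seen. The members and lists were chosen with earlier results of these data known, so no test over a list is given. Alternatives were other scalings, filters, DESeq2 1.42.0, limma-voom (limma 3.58.1), the replicate number as a block and each library left out. Counts without rounding, the Dbp and Sphk2 sum, and other ratio settings were added after seeing the data.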

Additional observations from a re-analysis of the deposited data

How the results depend on the processing

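The 5 tested genes kept their direction under every alternative run in which they could be fitted. Bhlhe40, Tef and Dbp also stayed past the threshold, except that Dbp was not tested under a mean CPM of at least 5, which left 1 member called lower. The sum with Sphk2 (-0.51, called) consists mostly of reads assigned to Sphk2 and says little of Dbp itself. Scaling by library size alone left 1 member called higher, with log2 fold changes of 0.17 for Nfil3 and 0.14 for Bhlhe41, both not called. With DESeq2, Nfil3 was not called at 0.22. Leaving out 1 library at a time gave 0.19 to 0.25 for Nfil3, 0.13 to 0.25 for Bhlhe41, 1.37 to 1.41 for Bhlhe40, -0.44 to -0.36 for Tef and -1.60 to -1.18 for Dbp; the cause of the lost calls was not tested. The labels do not state that replicate numbers pair the samples. Deviations from group means of same-numbered libraries correlated at -0.009, 0.021 and -0.100, and those of libraries with different numbers at -0.085 to 0.090. With 3 libraries per group, such values cannot tell whether cultures were paired. With the number as a replicate block, 3474 genes were called higher and 3428 lower, against 3584 and 3561 without it, and the log2 fold changes were -1.44 for Dbp, -0.40 for Tef, 0.21 for Nfil3, 1.38 for Bhlhe40 and 0.19 for Bhlhe41, all called. The change of the activator to Nfil3 ratio was -0.67 on the log2 scale, -0.64 without division by length and -0.62 for Tef alone. The low counts of Hlf and Dbp limit what can be said of them, and the calls of Nfil3 and Bhlhe41 lie near the threshold.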
